A study of Rattus norvegicus with 4 samples.

Results

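Nppa and Nppb encode the precursors of atrial natriuretic peptide (ANP) and brain natriuretic peptide (BNP), the hormones that heart muscle cells release. All probe sets annotated to either gene were taken, which gave 5 probe sets of 7006 with a single gene symbol, and 2 genes of 4736. Nppa had 4 probe sets and Nppb had 1. Left ventricular RNA of 4 rat groups had been hybridised to 1 oligonucleotide array each. In the left ventricle of double transgenic rats (dTGR), Nppa was 12.5-fold to 18.6-fold brighter than in the control (log2 difference 3.65 for the brightest probe set, or 3.01 after quantile normalization), and its brightest probe set ranked first among all genes with the processing used, while Nppb was only 1.86-fold brighter. In terminal heart failure the excess over the control was 6.59-fold to 11.9-fold for Nppa and 1.36-fold for Nppb. On the losartan array Nppa was still 3.01-fold to 4.36-fold above the control, while Nppb lay at the control level (0.973-fold).

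The terminal heart failure sample was labelled by that condition alone, without a genotype. The losartan sample came from dTGR given losartan, which blocks the angiotensin II type 1 receptor. The dTGR overexpress human renin and human angiotensinogen, and the control was the Sprague Dawley rat (SD control). All 4 samples, the SD control included, carry the same description, which says that the transgenic rats have high blood pressure and an enlarged heart, lose protein in the urine, and die after 7 weeks. Age, sex, losartan dose and duration, the number of animals behind an array, pooling, and the promoters driving the transgenes are not stated in the labels. With 1 array per group there was no replicate, so no test was possible and every difference below is between arrays, with no error over animals.

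ANP and BNP are made as prohormones, cleaved, and secreted when the heart wall is stretched. Both bind the guanylyl cyclase receptor Npr1, which makes cyclic GMP (cGMP), relaxes vessels and raises sodium excretion, and both are cleared by Npr3 and by proteases. In the adult heart ANP comes mainly from the atria, and the ventricle, which makes it before birth, makes more of both peptides again under pressure overload.

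The genes are neighbours on rat chromosome 5, on the plus strand, with Nppb first. Their proximal promoters are shown because both genes are read out below and share a small number of motifs that cardiac factors are known to bind. Each sequence covers 250 bases before and 50 bases after the start of the gene, from RefSeq on the GRCr8 assembly, at chr5:163711934-163712233 for Nppa and chr5:163699758-163700057 for Nppb. Capitals mark matches, on either strand, to the TATA box motif TATAAA, to the hexamers TGATAA and AGATAA that GATA factors bind, to the NKX2-5 site CAAGTG, and to CATTCC, the core of the M-CAT element bound by TEAD factors.
Nppa promoter: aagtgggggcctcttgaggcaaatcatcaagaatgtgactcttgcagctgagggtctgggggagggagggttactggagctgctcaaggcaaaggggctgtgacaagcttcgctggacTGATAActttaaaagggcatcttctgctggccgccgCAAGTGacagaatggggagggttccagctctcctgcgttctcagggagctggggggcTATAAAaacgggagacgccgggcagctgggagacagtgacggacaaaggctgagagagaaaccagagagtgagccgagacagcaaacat
Nppb promoter: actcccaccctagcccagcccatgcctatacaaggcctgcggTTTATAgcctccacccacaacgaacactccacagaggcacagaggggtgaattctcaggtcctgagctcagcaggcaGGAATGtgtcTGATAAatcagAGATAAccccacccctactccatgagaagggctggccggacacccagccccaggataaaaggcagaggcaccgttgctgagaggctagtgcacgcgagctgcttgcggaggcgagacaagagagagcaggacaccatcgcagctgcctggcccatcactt

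In Nppa the TATAAA match lay at -39 to -34 from the start, CAAGTG at -96 to -91 and TGATAA at -132 to -127. In Nppb the TGATAA match lay at -121 to -116, AGATAA at -110 to -105, the M-CAT core (GGAATG, on the minus strand CATTCC) at -131 to -126, and TATAAA, on the minus strand (TTTATA), at -208 to -203. TGATAA was thus the GATA-type hexamer present in both promoters, at a similar distance from the start. The same hexamer is in 9.03% of 33469 rat promoters of this length, AGATAA in 11.58%, CATTCC in 14.19%, CAAGTG in 14.06% and TATAAA in 14.22%. The E-box CANNTG, in 72.1% of promoters, occurred 3 times in Nppa, where 1 copy is the CAAGTG match, and 1 time in Nppb. Another GATA hexamer, AGATAG, had no match in either window. Nor did the AP-1 site TGACTCA, the T-box site TCACACC or the CArG box of serum response factor. The CArG box was sought only as CCWWWWWWGG, where W is A or T. Sites that differ from a pattern by a letter were not counted, so their absence is not shown. A match is a letter string and does not show that a factor is bound.

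The deposited arrays were already on nearly the same scale, with trimmed means of 200.2 to 200.3. They differed in other recorded ways. The terminal and losartan arrays shared 1 chip lot, and the dTGR and SD control arrays shared another. Only the terminal array had a separate run day, and only the dTGR array had a different fluidics protocol. The 3' to 5' signal ratio of Gapdh was 1.28 on the terminal, 2.17 on the losartan, 1.73 on the dTGR and 1.34 on the SD control array. The 100 brightest probe sets held 31.8%, 36.9%, 46.3% and 32.9% of the signal on those arrays. These factors cannot be told apart from the group, and their part in the results was not tested. Intensities are in arbitrary units, values under 26.0 were set to that floor before log2 was taken, and a call needed a 2-fold difference with at least 1 array of the pair above the floor.

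The tissue label was checked against markers. The ventricular light chain Myl2 read 16602 on the terminal, 23074 on the losartan, 34095 on the dTGR and 18015 on the SD control array. The atrial light chain Myl7 read 183, 64.9, 118 and 103 on the same arrays, and Myl4, the atrial essential light chain, read 32.2, 23.1, 3.0 and 2.0. Of 10 atrial markers, 7 were on the array. By their brightest probe sets, none of 5 above the floor was called in dTGR against the SD control. Of all genes, 7.69% were higher and 5.87% lower there. None of 6 was called in terminal heart failure against the SD control (6.38% and 8.4% of all genes). A second Gja5 probe set, AF022136_at, was 2.07-fold higher in that pair. In other pairs, Myl7 was 2.82-fold higher in terminal heart failure than in losartan-treated dTGR. Kcnj5 was called higher in terminal heart failure than in dTGR. The 7 markers summed to 7341 on the terminal, 7128 on the losartan, 9111 on the dTGR and 5645 on the SD control array. This sum was highest and lowest on the same arrays as Nppa with the scaling used. Most of that sum was Pam, at 6842, 6790, 8712 and 5211 on those arrays. Myl4 was under the floor of 26.0 on all but the terminal array. The part of atrial tissue in the results was not tested. In whole tissue, more cells that express a gene and more RNA per cell cannot be told apart.

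Nppa is the ANP gene. Its brightest probe set, E00698cds_s_at, which stands for the gene below, read 11731 on the terminal, 5403 on the losartan, 22028 on the dTGR and 1759 on the SD control array. E00903cds_s_at read 9754, 4449, 19076 and 1480 on those arrays. E00775cds_s_at read 11191, 4107, 17477 and 941, and X01118_at read 8001, 3869, 14042 and 960. All 4 probe sets put the arrays in one order, with dTGR highest, then terminal heart failure, then losartan-treated dTGR, and SD control lowest, except that after quantile normalization terminal heart failure and dTGR differed by only 0.14 on the log2 scale, in the other direction. With the scaling used, the 4 probe sets ran between 8001 and 11731 on the terminal array and 3869 and 5403 on the losartan array. They ran between 14042 and 22028 on the dTGR array and 941 and 1759 on the SD control array. These ranges did not overlap, but how often that holds for other genes was not counted. After quantile normalization the probe sets differed by only -0.07 to 0.33 on the log2 scale between terminal heart failure and dTGR. The probe sets share the same RNA and are no replicates of the condition. On the dTGR array 28 probe sets of any gene were brighter than E00698cds_s_at, on the terminal array 20, on the losartan array 127 and on the SD control array 380.

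Nppb is the BNP gene. Its probe set, rc_AA799498_at, read 2793 on the terminal, 1995 on the losartan, 3804 on the dTGR and 2050 on the SD control array. The dTGR array was again highest and terminal heart failure second, but the losartan and SD control arrays differed by -0.04 on the log2 scale, losartan minus SD control. Nppb has 1 probe set, so no second reading of it was available. Where a gene had several, their log2 differences for one pair of arrays scattered with an SD of 0.51 to 0.60 about the gene's mean, and the 6 Nppb differences ran between -0.93 and 0.89. Against that scatter the Nppb order of losartan and SD control cannot be told, and 0.89 in dTGR is under 2-fold.

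**Figure D1:**
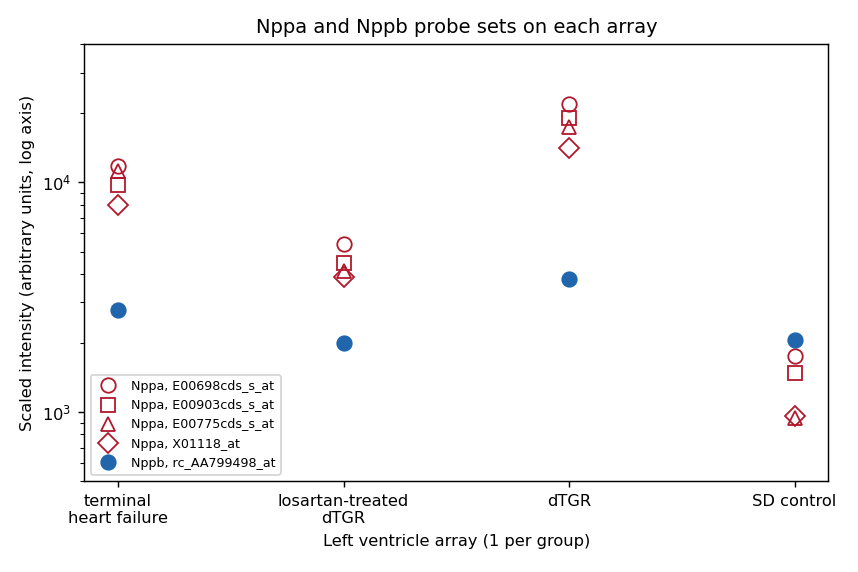
Scaled intensity, on a log axis, of each Nppa probe set (open symbols) and of the Nppb probe set (filled circles) on the 4 left ventricle arrays, 1 array per group. The Nppa probe sets lie between 14042 and 22028 on the dTGR array and between 941 and 1759 on the SD control array, and Nppb lies between 1995 and 3804 throughout. The height of one probe set is not comparable with that of another.

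The comparison of dTGR with the SD control sets the transgenic rat beside the Sprague Dawley rat. These 2 arrays share a chip lot but not the fluidics protocol. Their 100 brightest probe sets held 46.3% (dTGR) and 32.9% (SD control) of the signal. The part of these factors was not tested. Nppa was 12.5-fold higher by E00698cds_s_at, a log2 difference of 3.65, and the 4 probe sets lay between 3.65 and 4.21. After quantile normalization it was higher by 3.01, with the probe sets between 3.01 and 3.75. With the scaling used, the difference put it 1 of 3614 genes by rank from the highest. Nppb, at 1.86-fold or 0.89 on the log2 scale, ranked 346 of 3614. Of the 3614 genes, 7.69% were at least 2-fold higher and 5.87% at least 2-fold lower, so Nppa was among the genes called higher and Nppb was not. The 95 genes with the highest mean level had a median log2 difference of 0.45, against 0.03 for all genes. Actb, a gene not tied to the peptides and used as a scaling check, was higher by 0.83, and the ventricular light chains Myl2 and Myl3 by 0.92 and 0.90. Of 8 cardiomyocyte markers 2 were called higher, Actc1 by 1.35 and Tnnt2 by 1.12, and none lower, with a median of 0.65, while Casq2 differed by 0.10 and Ryr2 by 0.04. Gja1, in the ventricular list, differed by -0.67. The Nppb difference lay within the range of these genes, and that of Nppa was larger than that of Nppb by 2.75 (2.22 after quantile normalization). The array's own Gapdh control was higher by 0.30 at its 3' end, and differed by -0.06 at its 5' end and 0.05 in the middle. The beta-actin control differed by 0.36 at its 3' end, -0.15 at its 5' end and -0.22 in the middle, all less than Actb.

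Terminal heart failure was set against the SD control to see the peptides at the end stage. Nppa was higher by 2.74 on the log2 scale, or 6.67-fold, with the probe sets between 2.72 and 3.57. It ranked 17 of 3371 genes from the highest, and 6.38% of genes were at least 2-fold higher and 8.4% at least 2-fold lower. Nppb was higher by 0.45, rank 603, and was not called. In this pair the brightest 95 genes had a median of -0.12, and Actb differed by -0.14. The 2 peptides differed from each other by 2.29 on the log2 scale.

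Terminal heart failure against dTGR asks whether the peptides were higher still at the end stage. Both were lower with the scaling used, although for Nppa that direction turned after quantile normalization. Nppa differed by -0.91, between -0.97 and -0.64 over its probe sets, which is 1.56-fold to 1.96-fold, and none reached 2-fold. Nppb differed by -0.45. Of 3604 genes, 11.8% were at least 2-fold lower and 7.69% at least 2-fold higher. Actb differed by -0.97, Myl2 by -1.04 and the 95 brightest genes by a median of -0.50, all in the same direction. The array's own beta-actin control differed by -0.60 at its 3' end, -0.25 at its 5' end and 0.25 in the middle. After quantile normalization the Nppa difference was 0.14, with its probe sets between -0.07 and 0.33. The pair differs in run day, chip lot and fluidics protocol.

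Losartan-treated dTGR was next set against untreated dTGR, a pair that differs in chip lot and fluidics protocol. Nppa was lower by 2.03 on the log2 scale, which is 4.08-fold, with the probe sets from 3.63-fold to 4.29-fold. It ranked 24 of 3644 genes from the lowest, with 9.5% of genes at least 2-fold lower and 5.9% at least 2-fold higher. Nppb was lower by 0.93, or 1.91-fold, and was not called. The 95 brightest genes had a median of -0.31 and Actb differed by -0.24, and both peptides were lower by more than those. Another actin reading, the array's own beta-actin control at its 3' end, differed by -1.04. Of 8 cardiomyocyte markers 1 was called lower, Ryr2 by 1.08, and none higher, with a median of -0.525. Actc1 differed by -0.82, Tnnt2 by -0.73, Casq2 by -0.14 and Pln by 0.36. Gja1, in the ventricular list, differed by -1.89. The Nppb difference lay within the range of these genes. The losartan array had the highest 3' to 5' ratios of the 4.

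Losartan-treated dTGR against the SD control asks what remained after treatment. Nppa stayed 3.07-fold above the control, 1.62 on the log2 scale, with probe sets between 1.59 and 2.13. It ranked 15 of 3394 genes from the highest. Only 2.24% of genes were at least 2-fold higher in this pair, and 4.86% were at least 2-fold lower. On the linear scale 16.9% to 22.2% of the dTGR excess of Nppa was still there on the losartan array, and on the log2 scale 43.1% to 52.0%. Nppb differed from the control by -0.04, which is -4.36% of its dTGR difference on the log2 scale, and ranked 1573 of 3394 from the lowest. That dTGR difference, 0.89, was not called, and it rests on 1 probe set. The order of losartan and SD control cannot be told for Nppb, so its remainder cannot be set firmly against that of Nppa. This comparison and the 2 before it share arrays, so they are not independent.

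Terminal heart failure against losartan-treated dTGR compares the arrays of 1 chip lot, which were run on different days. Nppa was higher by 1.12, or 2.17-fold, with the probe sets between 1.05 and 1.45, and ranked 205 of 3401 genes. In this pair 7.44% of genes were at least 2-fold higher and 7.35% at least 2-fold lower. Nppb was higher by 0.49 and was not called, and Actb differed by -0.73. The array's own beta-actin control went the other way, by 0.44 at its 3' end, 0.92 at its 5' end and 1.47 in the middle.

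**Figure D2:**
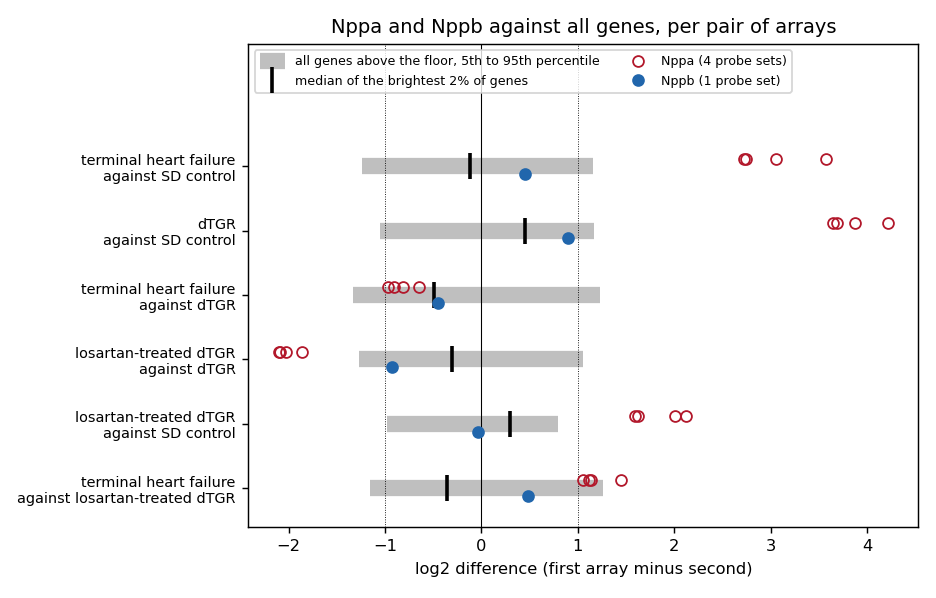
Log2 difference for each pair of arrays, the first named minus the second, for the 4 Nppa probe sets (open circles) and the Nppb probe set (filled circles). Grey bars span the 5th to 95th percentile of all genes above the floor and black ticks mark the median of the brightest 2%. Nppa lies beyond the grey bar in dTGR against the SD control (3.65 to 4.21), whereas Nppb (0.89) lies inside it.

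The receptors through which the peptides act were read next. Npr1, the guanylyl cyclase receptor for ANP and BNP, read 230 on the terminal, 227 on the losartan, 234 on the dTGR and 225 on the SD control array, by its brightest probe set. A second Npr1 probe set, S82229_s_at, differed by -1.77 in dTGR against the SD control, so its readings disagree. Npr2, the receptor for C-type natriuretic peptide, read 58.0, 75.3, 68.0 and 92.3 on those arrays and reached 2-fold in no pair. Npr3, the clearance receptor, read 5.0, 14.1, 59.3 and 26.1, close to the floor on all but dTGR, and was 2.27-fold higher in dTGR than in the SD control. Of the 3 receptors, 1 was higher in dTGR than in the SD control and none lower (7.69% and 5.87% of all genes), and none was called in terminal heart failure against the SD control. Nppc, the gene of C-type natriuretic peptide, read 18.0, 36.7, 71.4 and 21.0 and was at least 2.74-fold higher in dTGR than in the SD control. Its other probe set read 8.0 in dTGR and 26.1 in the SD control, under or at the floor, and did not show this difference.

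Another list held 12 genes of processing, secretion and breakdown of the peptides. Of these, 10 were on the array, and Corin and Chga were not. In terminal heart failure against the SD control 7 were above the floor, with 2 lower and none higher (8.4% and 6.38% of all genes). Their median was -0.58, against -0.14 for all genes. In terminal heart failure against dTGR none of 6 was called (11.8% of all genes lower, 7.69% higher), with a median of -0.61 against -0.18. Dpp4, a protease that trims BNP, read 30.1 in terminal heart failure and 92.7 in the SD control, and Pcsk6, a prohormone convertase, read 233 and 709, so both were lower, by 3.08-fold and 3.04-fold. In dTGR against the SD control none of 7 was called, with the median of the list at -0.35 against 0.03 for all genes. Pam, the amidating enzyme that is abundant in atrial granules, read 6842 on the terminal, 6790 on the losartan, 8712 on the dTGR and 5211 on the SD control array. It was highest in dTGR, 1.67-fold over the SD control. A second bright Pam probe set, E03428cds_s_at, read 3933, 1166, 4464 and 2996 on those arrays, and so put the losartan array lowest.

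Of 20 listed genes of cGMP synthesis and breakdown, 14 were on the array. By their brightest probe sets, Pde2a, Nos2, Nos3 and Gucy1a1 were above the floor on all 4 arrays and reached 2-fold in no pair. Other probe sets of Nos2 and Nos3 disagree. Nos2 S71597_s_at was 3.12-fold lower in terminal heart failure than in the SD control. Nos3 U02534_at was 3.21-fold lower in losartan-treated dTGR than in dTGR. In dTGR against the SD control 1 of 9 was higher, Pde5a, the cGMP phosphodiesterase, at least 2.10-fold, and none was lower (7.69% and 5.87% of all genes). In terminal heart failure against the SD control Gucy2c was at least 2.15-fold higher and Gucy1b1, the beta subunit of soluble guanylyl cyclase, 2.25-fold lower, of 8 (6.38% and 8.4% of all genes). Pde3a, which breaks down cAMP and cGMP, read 32.1 in losartan-treated dTGR and 112 in dTGR, 3.49-fold lower.

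Of 38 listed transcription factors known from work on these 2 promoters, 19 were on the array. In terminal heart failure against the SD control 3 of 17 were higher and 1 was lower, where 6.38% and 8.4% of all genes were. Fos, an immediate early gene and AP-1 subunit, read 1061 on the terminal, 133 on the losartan, 227 on the dTGR and 200 on the SD control array. Egr1, another immediate early gene, read 1024, 271, 390 and 342, and Junb read 232, 35.7, 146 and 90.1. These 3 were highest in terminal heart failure. Other Fos probe sets, X03347cds_g_at and X06769cds_at, differed there from the SD control by 3.44 and 3.31, against 2.41 for the brightest. Macrophage markers were also higher there: 4 of 7 were called higher than in the SD control (Lyz2, C1qb, C1qc and Lgals3) and 1 lower (Cd74), with a median of 1.04, and their summed intensity was 5186 on the terminal, 3586 on the losartan, 3658 on the dTGR and 3053 on the SD control array. The neutrophil genes S100a8 and S100a9 were higher as well. The part of such cells in the result was not tested. Gata4, which binds GATA sites in both promoters, read 196, 260, 338 and 402, lowest in terminal heart failure, 2.05-fold under the SD control. A second Gata4 probe set, rc_AI234969_s_at, instead read lowest on the losartan array, at 9.1. In dTGR against the SD control none of 15 was higher and 2 were lower (7.69% and 5.87% of all genes), Hand2 by 2.29-fold and Nr3c1, the glucocorticoid receptor, by 2.04-fold. A second Nr3c1 probe set differed by 0.69, in the other direction.

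**Figure D3:**
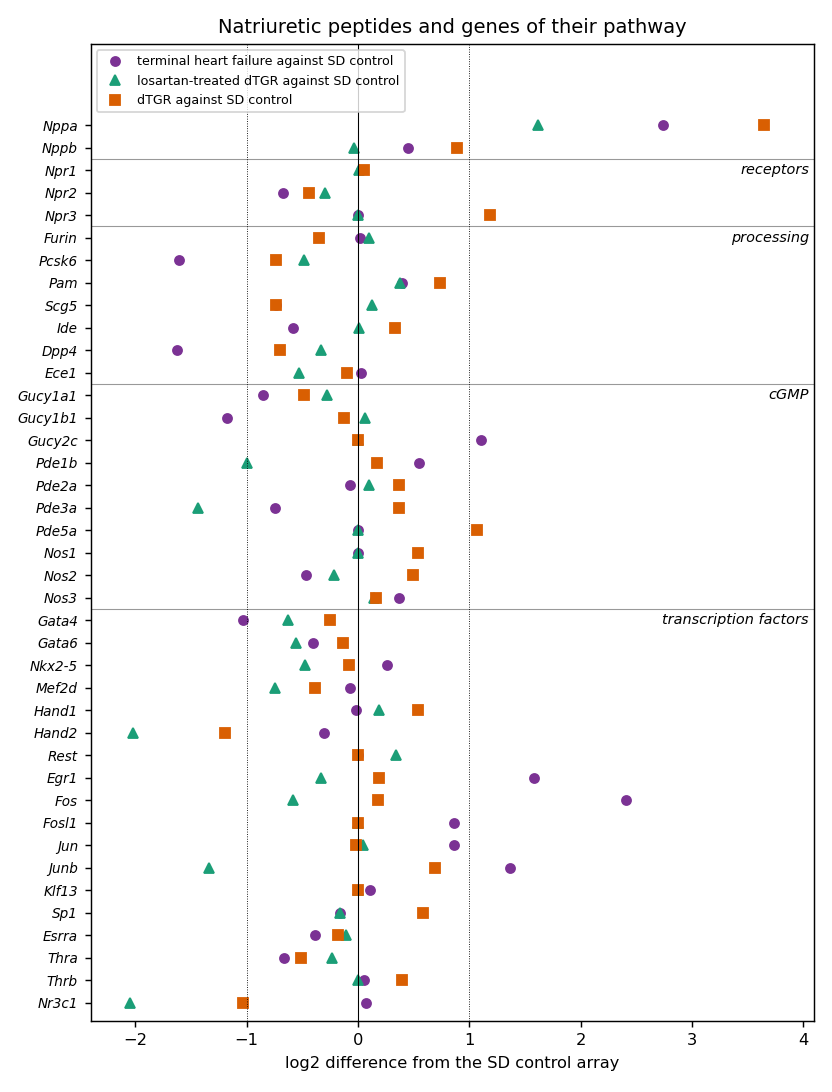
Log2 difference from the SD control array for Nppa, Nppb and the genes of their receptors, processing, cGMP pathway and transcription factors that were above the floor on at least 1 array of some pair shown. Circles are terminal heart failure, triangles losartan-treated dTGR and squares dTGR, each against the SD control, with dotted lines at 2-fold. Nppa at 3.65 in dTGR stands to the right of every pathway gene, the furthest of which, Fos, is at 2.41 in terminal heart failure. Other Fos probe sets, not shown, were at 3.44 and 3.31 in terminal heart failure, where Nppa was at 2.74. A value whose other side was under the floor is a bound.

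Of 25 ligands and receptors known to raise natriuretic peptide expression, 23 were on the array. In dTGR against the SD control 6 of 19 were higher and 1 lower, where 7.69% and 5.87% of all genes were, with a median of 0.49 against 0.03 for all genes. The highest was Il6st, the shared receptor subunit of the interleukin-6 family, which read 98.4 on the terminal, 25.1 on the losartan, 111 on the dTGR and 36.5 on the SD control array. It was thus high in terminal heart failure and dTGR and low in losartan-treated dTGR and the SD control. Lif, a ligand of that receptor, was 2.35-fold higher and Igf1, insulin-like growth factor, 2.07-fold lower. In losartan-treated dTGR against dTGR 5 of 19 were lower and none was higher (9.5% and 5.9% of all genes), Il6st by at least 4.28-fold. Adm, the gene of the vasodilator adrenomedullin, read 239 on the terminal, 60.7 on the losartan, 107 on the dTGR and 53.2 on the SD control array, highest in terminal heart failure. Edn1, whose peptide endothelin is a classic inducer of Nppa, was under the floor on all 4 arrays.

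The neighbouring genes were examined because Nppb and Nppa lie 10.9 kb apart with no gene of the table between them. Of the 10 nearest genes with a probe set on each side, 15 could be read in dTGR against the SD control, with 1 higher and 4 lower (7.69% and 5.87% of all genes) and a median of -0.19. The nearest was Plod1, lysyl hydroxylase, 49.2 kb before Nppb, which read 175 on the terminal, 188 on the losartan, 122 on the dTGR and 249 on the SD control array, 2.05-fold lower in dTGR. Mfn2, mitofusin, 82.6 kb away, differed by 0.22. Pdpn, podoplanin, was the higher one, at 2.71-fold, and lay 2781 kb from the pair. Pex14, a peroxisome import gene, differed by -0.19, while its second probe set differed by 2.07. In terminal heart failure against the SD control 2 of 13 neighbours were higher and 2 lower (6.38% and 8.4% of all genes).

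**Figure D4:**
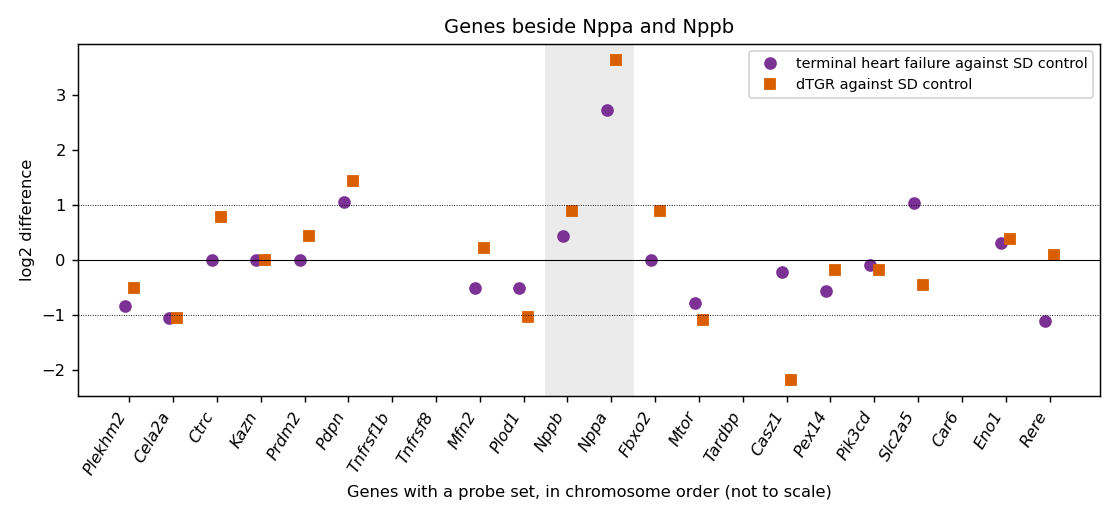
Log2 difference from the SD control array of Nppb, Nppa (shaded) and the 10 nearest genes with a probe set on each side, in chromosome order and not to scale. Circles are terminal heart failure and squares dTGR, dotted lines mark 2-fold, and genes under the floor on all 4 arrays have no symbol. The neighbours lie between -2.19 and 1.44 in dTGR, where Nppa is at 3.65.

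Genes whose profile over the 4 arrays was most like that of each peptide were ranked by the distance between their log2 values, each taken relative to the gene's own mean, among 2575 genes above the floor on all arrays. Penk, which encodes the enkephalin precursor, was nearest to Nppa at a distance of 0.34. It read 2065 on the terminal, 863 on the losartan, 3001 on the dTGR and 327 on the SD control array. With the scaling used it followed the same order as Nppa and was 9.18-fold higher in dTGR than in the SD control. The next nearest were Cdo1 (0.94), Thbs4 (0.996), Akip1 (1.04), Scarb1 (1.15) and Pitx3 (1.34), all farther off. A second Cdo1 probe set was higher in dTGR by 0.48, against 2.98 for the one that stands for the gene, and 2 other Scarb1 probe sets by 0.08 and -1.31. Nearest to Nppb were Padi4 (0.14), Mvp and Aggf1 (0.15 each), Zcchc8 (0.15), Cept1 (0.17) and Mrto4 (0.17), genes whose differences over the arrays are small, as those of Nppb are. After quantile normalization 3 of the 6 Nppa genes and none of the 6 Nppb genes were still among the nearest. Nppa and Nppb lay 2.09 apart, a distance that also counts the smaller size of the Nppb differences. With the scaling used, both were highest on the dTGR array and second highest on the terminal array.

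**Figure D5:**
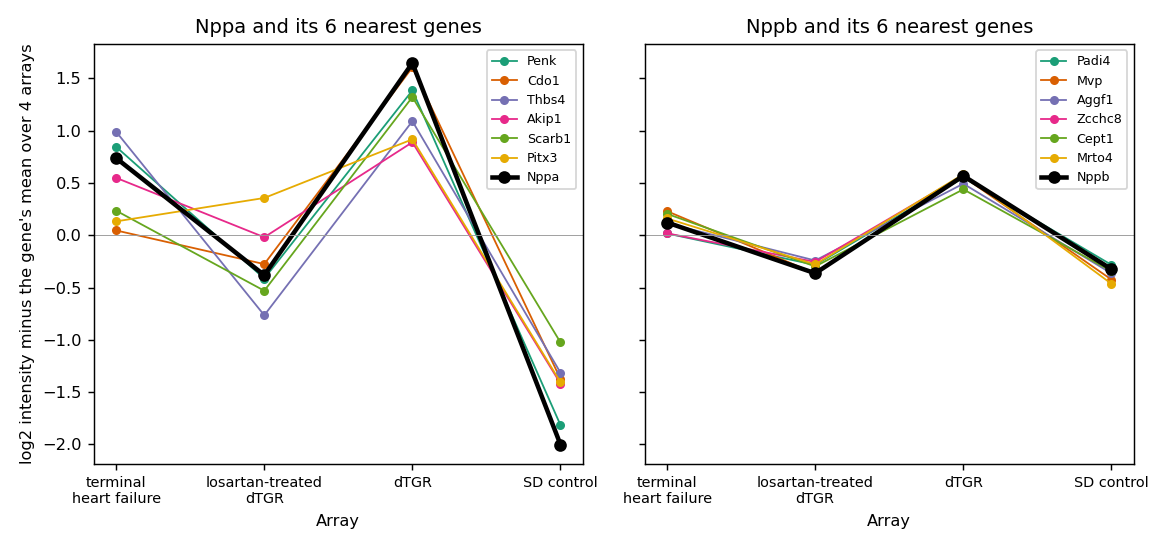
Log2 intensity relative to each gene's mean over the 4 arrays, for Nppa (left, black) and Nppb (right, black) with their 6 nearest genes. Nppa reaches 1.65 on the dTGR array and is lowest on the SD control array, and Penk follows it closely. Nppb runs between -0.36 on the losartan array and 0.57 on the dTGR array.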

How the data were processed

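Total RNA of the rat left ventricle was hybridised to 4 Affymetrix rat genome arrays (U34 set), 1 per group. The deposited table holds 1 linear intensity per probe set and array. The software behind these values is not stated in the labels or the files, and no detection calls were used. Many low values appear rewritten by a spreadsheet: of 15281 values from 1 to under 32, 13625 have a 0 as first decimal. They lie under or near the floor. Of 8799 probe sets, 59 controls, 1426 without a symbol and 308 with several were left out. Arrays were scaled to the mean of their trimmed means (2% left out at each end). The floor was the 40th percentile of all values (26.0), and log2 was taken. A gene's brightest probe set stood for it. Where 1 array of a pair was below the floor, the fold is a bound ("at least"). The code was tested on simulated data.

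The 6 pairs of arrays, which share arrays, were compared without a test. Named were all Nppa and Nppb probe sets, list members at least 2-fold apart (or the 3 largest), the 6 nearest profiles, the neighbours and Actb, and Gapdh through control probe sets. These genes, the lists and rules were chosen with earlier results of these data known. Python 3.11.15, pandas 2.3.3 and limma 3.58.1 (quantile normalization, cyclic loess) were used. Of 10 alternatives, 1 (low values read with 1 decimal) was added after seeing the data. Promoters and positions came from RefSeq on GRCr8.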

Additional observations from a re-analysis of the deposited data

How the results depend on the processing

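Results were recomputed under 10 alternatives: median scaling, quantile normalization, cyclic loess, the deposited values unscaled, 3 other floors, 2 other choices of probe set, and low values read with 1 decimal. Of the Nppa log2 differences, 58 of 60 values stayed within the scatter between probe sets of a gene, as did 60 of 60 for Nppb and 58 of 60 for the gap between the genes. The others came from quantile normalization. There Nppa in dTGR against SD control was 3.01 and the gap to Nppb 2.22. Nppa in terminal heart failure against dTGR turned to 0.14, and the gap to 0.52. The cause was not tested. These counts say little, because several alternatives could hardly move the values. Both genes lay above every floor used, and the deposited arrays were already on nearly the same scale. The choice of probe set could not change Nppb, which has 1. The scatter, 0.51 to 0.60 on the log2 scale, was also larger than some Nppb differences. Counts of genes past 2-fold depended on floor and scaling. Terminal heart failure against SD control had 215 higher and 283 lower as reported, and 142 to 600 and 141 to 687 otherwise (271 and 209 after cyclic loess). The dTGR against SD control had 278 and 212, and 59 to 858 and 77 to 537 otherwise (158 and 380 after median scaling, 214 and 247 after quantile normalization). Terminal heart failure against dTGR had 277 and 426, and 145 to 610 and 138 to 1040 otherwise (443 and 225 after median scaling, 333 and 334 after quantile normalization, 332 and 298 after cyclic loess). Losartan-treated dTGR against dTGR had 215 and 346, and 90 to 586 and 94 to 867 otherwise (340 and 216 after median scaling, 275 and 284 after quantile normalization). Losartan-treated dTGR against SD control had 76 and 165, and 27 to 509 and 61 to 508 otherwise (102 and 134 after cyclic loess). Terminal heart failure against losartan-treated dTGR had 253 and 250, and 149 to 600 and 129 to 741 otherwise. Median scaling moved the median of genes above the floor on both arrays to -0.23 in dTGR against SD control. Of the 6 genes nearest to Nppa, 3 were kept after quantile normalization and 1 without a floor. Of those nearest to Nppb, 0 were kept after quantile normalization or cyclic loess. No paired analysis was possible because each group has 1 array. Low signal limits the pathway genes near the floor, not Nppa or Nppb, which were above it on all 4 arrays.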
